A study of Mus musculus with 4 samples.

Results

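The broad RIF1 peaks were the autosomal entries of the deposited RIF1 peak list that were selected on their width, from 4 kb (end minus start of at least 4000 bp) to under 50 kb. There were 393 of them among 15635 autosomal peaks under 50 kb (2.51%), and the 15242 peaks under 4 kb (here called the other peaks) were used for comparison. The list held 16332 intervals in all, including 285 autosomal intervals of 50 kb or wider (called wide intervals here), and 3 peaks of 4 to 50 kb on the X chromosome were not included. Since width chose the broad peaks, width itself is given only as a description.

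RIF1 is a large chromatin-bound protein that sets the time at which domains replicate in S phase, in part by bringing protein phosphatase 1 to chromatin, and it also protects DNA ends during class switch recombination in B cells. Chromatin immunoprecipitation followed by sequencing (ChIP-seq) recovers the DNA that a protein touches directly or through partners, and a peak is a region where the recovered reads pile up above their surroundings. A transcription start site (TSS) is the 5′ end of an annotated transcript, and the stretch around it, the promoter, is often rich in CpG dinucleotides and open to binding proteins.

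RIF1 occupancy was measured by anti-HA ChIP-seq in primary splenic B cells that were cultured for 72 h with lipopolysaccharide (LPS, 5 µg/ml) and interleukin-4 (IL-4, 5 ng/ml), a treatment that activates B cells and drives class switching. The Rif1FH group (n = 2) came from Rif1FH/FH mice, in which both endogenous Rif1 alleles carry an N-terminal FLAG-HA tag, and the Rif1WT group (n = 2) came from untagged wild-type mice, the control for the antibody; mice were on a C57BL/6 background and of both sexes. The antibody label of the samples names anti-CD43 MicroBeads, a reagent for isolating resting B cells, whereas the protocol names anti-HA. The list kept regions called in both Rif1FH replicates, so it gives 1 set of positions with no score and no value per sample: peak height, replicate spread and the Rif1WT background were not analysed here. Intervals below are therefore counting intervals over peaks or genes (Wilson for shares, Newcombe for differences of shares, order statistics for medians, all 95%), and neighbouring peaks are not independent of each other.

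Stretches of 200 bases from 5 broad peaks show the range of DNA that these peaks covered, with CpG dinucleotides in capitals. The first 3 are the midpoints of the widest broad peaks whose midpoint lay outside genes, given on the + strand of mm9 (NCBIM37): chr11:88956648-88956847 in the peak beside Gm525, chr19:23212690-23212889 in the peak upstream of Klf9, and chr2:146044849-146045048 in the peak upstream of Insm1. The other 2 lie just upstream of the TSS of immediate-early genes under a broad peak: chr8:35870151-35870350 on the + strand for Dusp4, and chr2:56967450-56967649 on the - strand for Nr4a2. At each gene the annotated start nearest the peak midpoint was taken. For Nr4a2 this is an internal start, so its stretch lies within the annotated gene. None of the 5 overlaps an annotated exon.
Gm525 peak midpoint: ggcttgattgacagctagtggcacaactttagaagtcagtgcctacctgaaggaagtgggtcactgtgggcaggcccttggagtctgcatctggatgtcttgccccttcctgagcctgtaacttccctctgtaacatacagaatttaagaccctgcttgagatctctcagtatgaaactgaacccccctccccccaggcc
Klf9 peak midpoint: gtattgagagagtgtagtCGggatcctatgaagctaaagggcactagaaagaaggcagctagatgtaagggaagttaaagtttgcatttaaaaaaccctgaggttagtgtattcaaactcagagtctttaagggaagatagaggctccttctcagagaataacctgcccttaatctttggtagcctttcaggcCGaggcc
Insm1 peak midpoint: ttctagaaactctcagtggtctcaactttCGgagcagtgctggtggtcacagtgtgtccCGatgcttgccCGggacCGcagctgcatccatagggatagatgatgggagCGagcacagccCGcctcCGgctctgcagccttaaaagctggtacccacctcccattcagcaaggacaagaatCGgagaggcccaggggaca
Dusp4 upstream: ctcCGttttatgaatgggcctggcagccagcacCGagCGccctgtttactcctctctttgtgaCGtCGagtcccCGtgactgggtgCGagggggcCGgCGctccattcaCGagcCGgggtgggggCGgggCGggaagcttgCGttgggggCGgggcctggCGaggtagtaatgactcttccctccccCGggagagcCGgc
Nr4a2 upstream: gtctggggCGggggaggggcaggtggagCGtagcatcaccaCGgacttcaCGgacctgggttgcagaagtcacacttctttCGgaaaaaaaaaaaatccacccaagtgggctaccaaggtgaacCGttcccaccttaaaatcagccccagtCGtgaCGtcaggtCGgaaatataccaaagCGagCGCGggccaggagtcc
The Gm525 stretch held 0 CpG dinucleotides and the Klf9 stretch 2, whereas the stretch at Insm1, a gene for a zinc finger factor of neuroendocrine cells, held 8. The promoter stretches of Dusp4 and Nr4a2 held 18 and 12. The GC box GGGCGG, searched on both strands, was found 3 times upstream of Dusp4, 1 time upstream of Nr4a2 and in none of the 3 midpoint stretches.

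The broad peaks ran from 4000 to 14827 bp, with a median of 4739 bp and quartiles of 4312 and 5485 bp, and the other peaks had a median of 1343 bp. Most sat close to the lower limit: 249 were under 5 kb, 15 reached 8 kb and 7 reached 10 kb. They covered 2028 kb in total, 8.20% of the bases under all autosomal peaks below 50 kb. Just inside the limit were peaks at Kcnq5 (4000 bp), Spop (4001 bp) and Prkce (4002 bp), and just outside it were peaks at Hes6 (3999 bp), Nfe2l2 (3999 bp) and Rgmb (3994 bp). Every autosome carried broad peaks, from 1.83% of the peaks on chromosome 4 (16 of 872, Wilson interval 1.13 to 2.96%) to 3.86% on chromosome 14 (24 of 621, 2.61 to 5.69%).

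**Figure D1:**
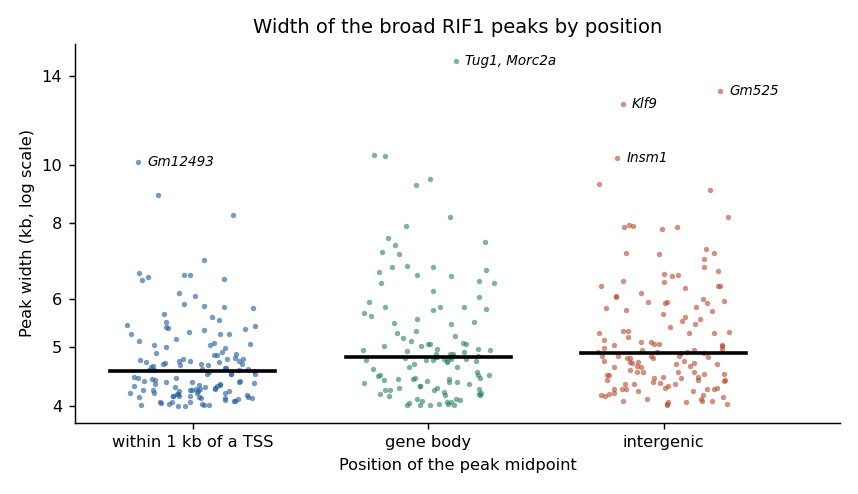
Width of each of the 393 broad peaks (kb, log scale) by the position of its midpoint: within 1 kb of a TSS, in a gene body, or intergenic. Each point is a peak, black lines are medians (4564, 4811 and 4882 bp), and peaks of 10 kb or more whose midpoint lies outside coding genes carry the name of a gene whose TSS they cover or, where there is none, of the nearest coding gene; of the 7 peaks of 10 kb or more, only 1 had its midpoint at a TSS.

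Broad peaks were centred on a TSS less often than other peaks and lay more often in gene bodies and between genes. The midpoint was within 1 kb of a TSS for 136 broad peaks (34.6%, Wilson interval 30.1 to 39.4%) against 44.9% of the other peaks, a difference of -10.3 percentage points (Newcombe interval -14.9 to -5.43), with the broad peaks lower on 15 of 19 autosomes. With a least width of 3 kb the difference was -0.755 points and its interval included 0 (-3.75 to 2.28). Gene body midpoints made up 30.3% of broad and 25.1% of other peaks (difference 5.22 points, 0.829 to 9.98), and intergenic midpoints 35.1% and 30.0% (5.11 points, 0.492 to 10.0). The direction at TSSs held for the midpoint and not for the reach of the peak: counting any base within 1 kb of a TSS, 54.7% of broad and 48.0% of other peaks qualified (6.69 points, 1.68 to 11.6), as a wider interval meets more windows, and with a 5 kb window for the midpoint the values were 57.3% and 56.8% (0.455 points, -4.55 to 5.32). Against the 3482 other peaks of at least 2 kb, the broad peaks were lower by both measures, with differences of -20.7 points for the midpoint and -5.69 points for any overlap.

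The share of midpoints at a TSS did not fall steadily with width over the whole list. It was 31.2% for peaks under 1 kb, 48.9% for 1 to 2 kb, 57.0% for 2 to 3 kb and 49.0% for 3 to 4 kb. Within the broad peaks it was 40.2% for 4 to 5 kb, 31.2% for 5 to 6 kb and 17.9% for the 67 peaks of 6 kb or more, which were thus the least often centred on a TSS of all the width classes. Counting any base within 1 kb of a TSS, 53.7% of the widest class qualified, which includes those centred on a TSS. Where the TSS lay was measured only for broad peaks over 1 coding gene's 5′ end, described below, and was not summarised for this width class.

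**Figure D2:**
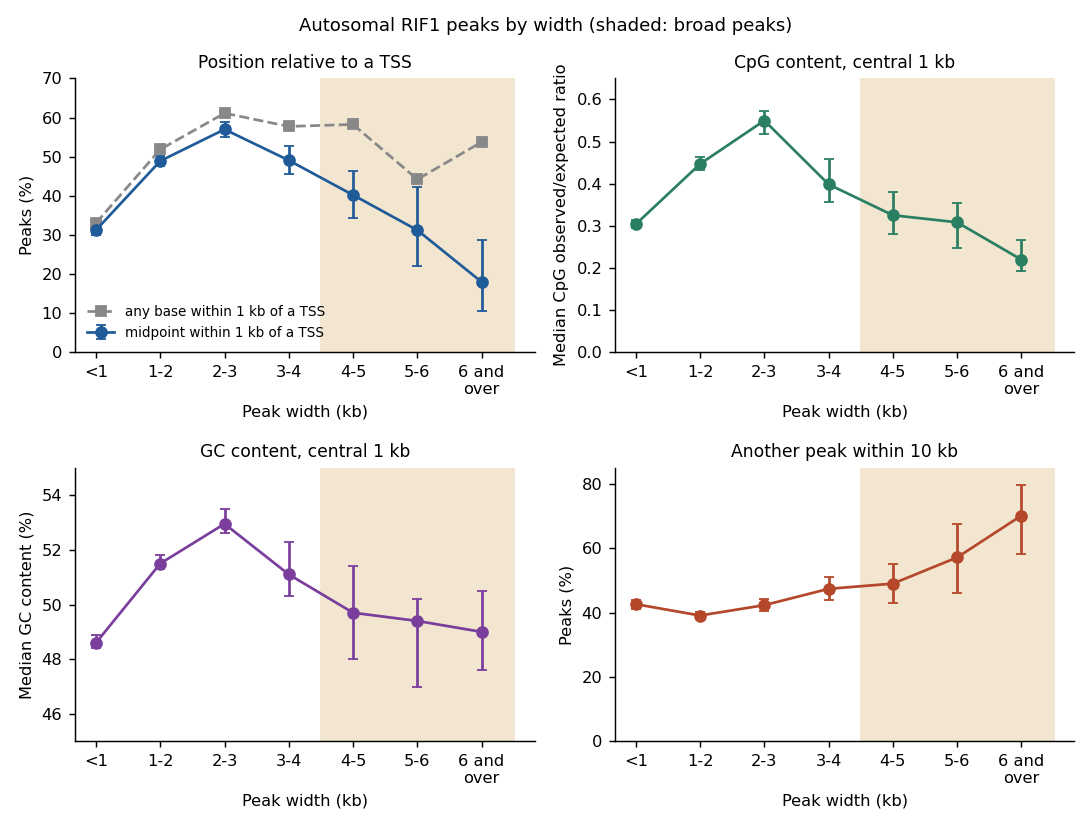
Autosomal RIF1 peaks by width class (kb), with the broad peaks shaded. Panels show the share of peaks at a TSS by midpoint (blue) and by any overlap (grey), the median CpG observed to expected ratio and the median GC content of the central 1 kb, and the share with another peak within 10 kb; error bars are 95% counting intervals (none on the grey line), and the GC axis does not start at 0. The midpoint share and the CpG ratio were highest at 2 to 3 kb (57.0% and 0.550) and lowest at 6 kb or more (17.9% and 0.219), where the share with a neighbour was highest (70.1%).

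The broad peaks away from TSSs tended to lie near genes. For the 257 whose midpoint was over 1 kb from any TSS, the median distance to the nearest TSS of a coding gene was 14.3 kb, against 21.2 kb for the 8394 other peaks of that kind. Of these 257, 28.8% lay within 5 kb of a coding TSS and 77.4% within 50 kb, against 17.5% and 73.1% of the other peaks. The midpoint of a broad peak lies farther from its own edges than that of a narrow one, so a broad peak that starts at a promoter can have its midpoint a few kb away, and the part of this in the difference was not tested. Midpoints in gene bodies fell in introns for 105 of 119 broad peaks (88.2%), close to the 90.4% of the other peaks.

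The DNA under broad peaks was poorer in CpG than that under other peaks over the whole list, and the difference was smaller within position classes. The CpG observed to expected ratio compares the number of CpG dinucleotides with that expected from the C and G content, and it is high at most promoters of widely expressed genes and low elsewhere. Over the central 1 kb its median was 0.290 for broad and 0.395 for other peaks (difference -0.105, -0.130 to -0.0617, lower on 17 of 19 autosomes). Among peaks centred on a TSS the medians were 0.653 and 0.697 (difference -0.0443, -0.127 to 0.00514), and away from TSSs 0.235 and 0.252 (-0.0169, -0.0389 to 0.00580), so within either class the interval of the difference included 0, while at TSSs it also included the difference over all peaks. The median GC content was 49.3% against 50.6% over all (difference -1.30 points, -2.52 to -0.394, lower on 17 of 19 autosomes). At TSSs it was 55.5% against 57.1% (-1.65 points, -3.91 to 1.51), and away from them the sign turned, with 47.5% against 47.2% (0.3 points, -0.308 to 0.810). The central 1 kb of a broad peak need not hold its summit, which the list does not give. Over whole intervals the differences were -0.0806 for the CpG ratio and -1.04 points for GC content.

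Broad peaks at TSSs themselves fell over a wide range of CpG content, from a ratio of 0.0805 to 0.996. The lowest was at Itga4, the integrin subunit that carries lymphocytes into tissue, and the highest at Lmnb1, which encodes the nuclear lamina protein lamin B1. The quartiles were 0.406 and 0.765, beside 0.550 and 0.808 for the other peaks at TSSs. Among broad peaks in gene bodies the median was 0.256, beside 0.255 for the other peaks there, and among intergenic ones 0.214, beside 0.249.

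A G-quadruplex is a folded form of guanine-rich DNA that RIF1 is known to bind, and its motif was searched as 4 runs of at least 3 guanines with loops of 1 to 7 bases on either strand. It was present in the central 1 kb of 120 broad peaks (30.5%, 26.2 to 35.3%) and of 32.4% of the other peaks, a difference of -1.88 points with an interval from -6.29 to 2.90. Its direction depended on the width limit and on the peaks compared: it was 3.93 points (1.06 to 6.88) with a least width of 3 kb, -5.36 points (-8.80 to -1.66) after peaks under 1 kb apart were joined, and -8.35 points (-13.0 to -3.36) against other peaks of 2 kb or wider. At TSSs the shares were 50.7% and 46.5% (4.27 points, -4.12 to 12.6), and away from them 19.8% and 21.0%. In either class the interval included 0.

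Short motifs of factors that act in B cells or at promoters were searched on both strands of the same central 1 kb windows. This window is a smaller part of a broad peak than of an other peak, so the rest of a broad peak was not searched. Midpoints lay within 0.1 kb of a TSS for 5.09% of broad and 14.6% of other peaks. The part of this in the differences was not tested. The GC box GGGCGG, bound by SP and KLF family factors, was present in the window of 34.1% of broad and 48.6% of other peaks (difference -14.5 points, -19.1 to -9.65). It was less frequent in the window of broad peaks both at TSSs (64.0% against 78.5%, -14.5 points, -22.9 to -6.87) and away from them (18.3% against 24.3%, -5.98 points, -10.3 to -0.719). The ETS core GGAAGT, bound by factors such as PU.1, was present in 51.9% and 57.6% (-5.68 points, -10.7 to -0.722), with a difference of -6.49 points at TSSs (-14.8 to 1.95) and -6.41 points away from them (-12.6 to -0.345). The AP-1 motif TGANTCA, bound by FOS and JUN proteins, was present in 22.1% and 26.6% (-4.43 points, -8.32 to -0.00894), at TSSs in 12.5% and 16.4% (-3.94 points, -8.58 to 2.72) and away from them in 27.2% and 34.8% (-7.59 points, -12.8 to -1.75).
The EBF motif CCCNNGGG, bound by early B cell factor, was present in 33.8% and 36.0% (-2.17 points, -6.74 to 2.70), with 37.5% and 46.1% at TSSs (-8.59 points, -16.4 to -0.129) and 31.9% and 27.8% away from them (4.11 points, -1.37 to 10.1).
The other 6 motifs had intervals that included 0 over all peaks and in both position classes: the ETS-IRF composite GGAANNGAA (28.8% and 28.1%), the E-box CAGNTG (92.1% and 91.7%), the octamer ATGCAAAT (5.85% and 5.88%), the CCAAT box (69.0% and 69.2%), the RUNX motif TGTGGTT (23.2% and 21.0%) and the NF-kappaB motif (23.9% and 25.7%). Short motifs overlap each other and CpG content, and a match is a string of letters, not a bound site.

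Broad peaks had other peaks close by more often than narrow ones did. Measured from edge to edge, 213 of the 393 (54.2%, 49.3 to 59.1%) had another peak within 10 kb, against 41.1% of the other peaks, a difference of 13.1 points (8.05 to 18.0) that was positive on 16 of 19 autosomes. The difference remained at 10.8 points (4.66 to 16.7) when only peaks away from TSSs were compared (60.3% against 49.5%), and it was 12.3 points after peaks less than 1 kb apart were joined into 1. The median gap to the next peak was 8.01 kb for broad and 15.0 kb for other peaks, and 24.9% of broad peaks had a neighbour within 2 kb, against 16.1%. By width class, the share with another peak within 10 kb was similar on both sides of the 4000 bp limit. It was 47.4% (43.8 to 51.0%) from 3000 to under 4000 bp and 49.0% (42.8 to 55.2%) for the 249 broad peaks under 5000 bp. Wider broad peaks had higher shares, with 57.1% (46.0 to 67.6%) from 5000 to under 6000 bp and 70.1% (58.3 to 79.8%) from 6000 bp. The share within 500 kb of a wide interval was 12.5% for broad and 14.9% for other peaks (-2.47 points, -5.43 to 1.21), a difference that could not be told from 0.

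Several genes were accompanied by more than 1 broad peak. Of the 373 coding genes that were the nearest coding gene of a broad peak, 16 were nearest to 2 or more, and only Jun and Myb to more than 2, with 4 each. Distances are in kb from the peak midpoint to the nearest annotated 5′ end of the gene, negative upstream. At Myb, which encodes a transcription factor of blood progenitors and proliferating lymphocytes, the broad peaks lay at 0.651, -27.9, -64.1 and 59.8 kb. At Jun, a subunit of AP-1, 1 lay at the gene (0.679 kb) and the others at -142, -162 and -251 kb, in a stretch with no closer coding TSS. Their nearest gene need not be the gene they act on.

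Broad peaks within 50 kb of each other formed 18 runs that held 38 broad peaks (9.67%). The 2 runs of 3 lay upstream of Cd47, the gene of a surface protein that inhibits phagocytosis (chr16:49769615-49802373), and across the Myb promoter and its upstream flank (chr10:20877957-20947304). At Birc3, which encodes the ubiquitin ligase cIAP2 of the NF-kappaB pathway, 2 broad peaks of 5364 and 9473 bp were separated by 0.535 kb and together covered the promoter and 50.2% of the gene. Pairs also lay beside Mef2a, the gene of a MADS box factor (-48.3 and -56.4 kb), within Nrp2, which encodes a semaphorin and VEGF co-receptor, and at Pik3r1, which encodes the p85 regulatory subunit of PI3K.

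**Figure D3:**
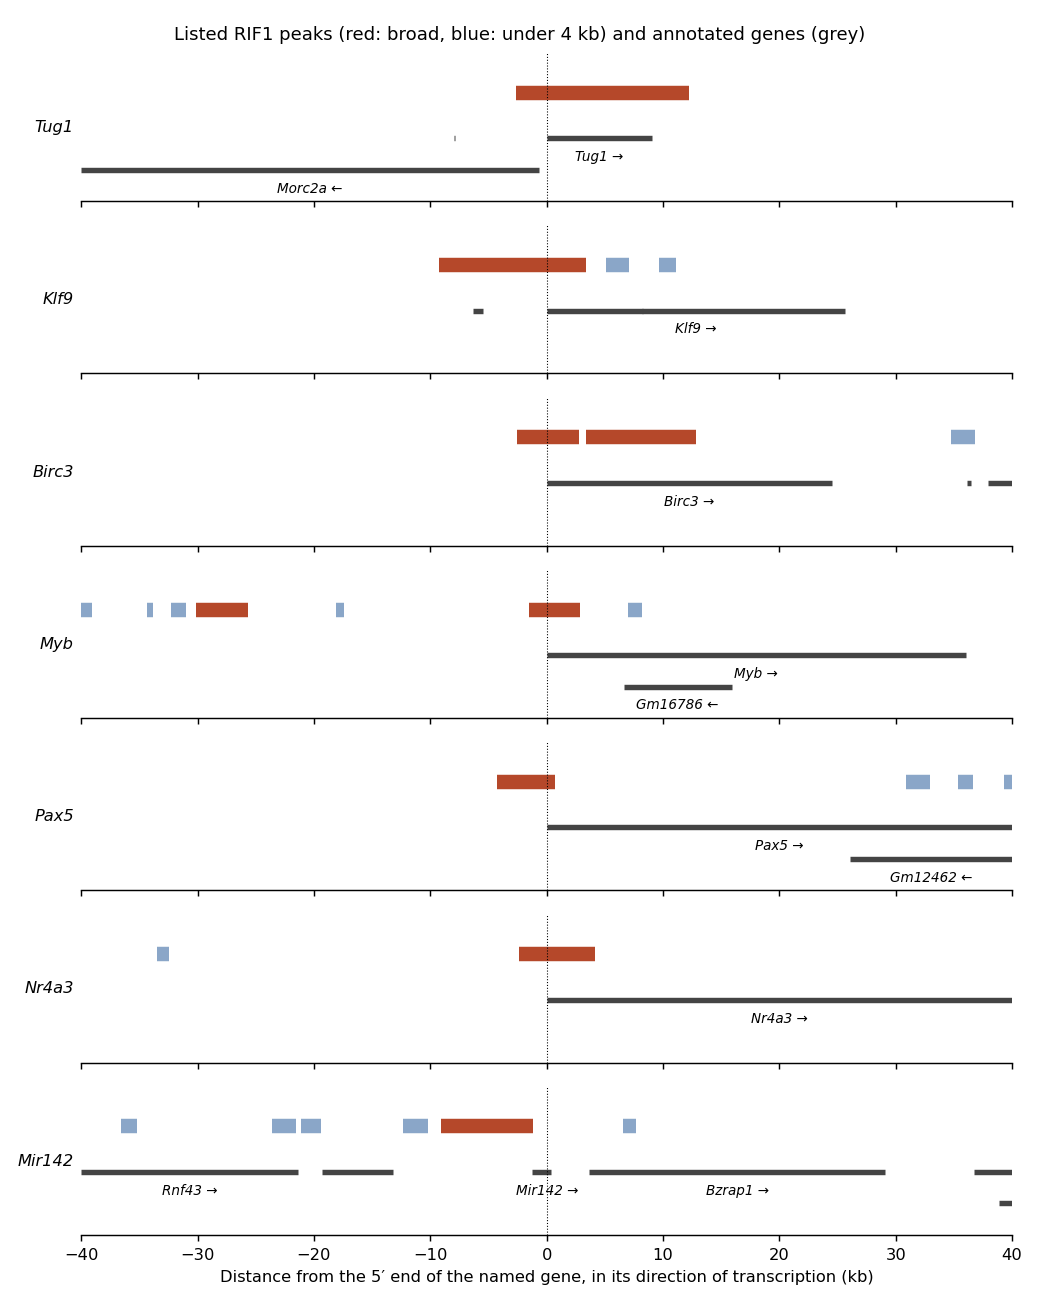
Peaks in the list within 40 kb of the 5′ end of 7 genes, each drawn in its direction of transcription (distance in kb, 0 at the 5′ end). Red bars are broad peaks, blue bars are peaks under 4 kb and grey bars are annotated genes, with those on the same strand above those on the opposite strand with short neighbours unnamed and pseudogenes left out; the bar at Mir142 is A430104N18Rik, within which it lies. The broad peak covers the whole of Tug1, ends near the 5′ end of Pax5, lies mostly upstream of Klf9, and stops 1.13 kb before Mir142; at Birc3 a pair lies side by side.

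The widest broad peak, chr11:3536588-3551414, covered the long noncoding RNA gene Tug1 and reached the divergent promoter of Morc2a, a chromatin ATPase linked to gene silencing. Next came a peak of 13231 bp over the end of Gm525 and beyond it, and one of 12602 bp that ran from upstream into Klf9, which encodes a Krüppel-like factor (chr19:23206490-23219091).
Further members of the widest 20 were 10262 bp at Insm1 and 4930529M08Rik, 10105 bp at the noncoding gene Gm12493 (nearest coding gene Grhpr, -14.6 kb), 9473 bp at Birc3, 9299 bp upstream of Rps6ka5, which encodes the histone kinase MSK1, and 9257 bp over Trim56, a ubiquitin ligase gene of innate immunity. A peak of 9089 bp lay -121 kb from Creb5, and one of 8925 bp covered the starts of Ccr10, Cntnap1 and Plekhh3. At Pik3ip1, an inhibitor of PI3K signalling, the peak was 8262 bp, at 2210016F16Rik 8212 bp, and at Ctdsp1, the host gene of Mir26b, 8208 bp. Others without a coding TSS were 7939 bp at the noncoding gene A430104N18Rik beside Mir142, 7915 bp at -75.5 kb from Glrp1, 7914 bp within Scarf2, 7893 bp at -103 kb from Fam48a and 7887 bp at -16.0 kb from Prss39. The 20 widest peaks thus reached genes of lymphocytes, such as Birc3 and Ccr10, and genes such as Insm1 and Cntnap1 that are known from the nervous and endocrine systems.

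Counted over genes, 213 of 21418 autosomal coding genes (0.994% called) had a broad peak within 1 kb of a TSS, whereas 7154 (33.4% called) had one of the other peaks there, and 34 genes had both. Of the broad peaks, 197 met no coding TSS, 179 met the TSSs of 1 coding gene, 16 of 2 and 1 of 3, the last at Ccr10, a chemokine receptor of antibody-secreting cells. Peaks shared by 2 genes included those at Smarcd2 and Tcam1, Tle3 and Gm10655, Fosl2 and Gm10463, Litaf and Snn, Ntn3 and Tbc1d24, Dleu7 and Rnaseh2b, and Ap3m2 and 1700041G16Rik, and at these the list cannot assign the peak to either gene. Genes with a broad peak at a TSS had a median span of 25.3 kb (19.2 to 32.2), those with only other peaks 29.6 kb and those with no peak at a TSS 10.3 kb. In the median, genes under broad peaks were thus not longer than those under other peaks.

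Gene groups were described with 27 lists, and counts are given beside the 0.994% of all coding genes with a broad peak at a TSS. Counts of genes with an other peak stand beside the 33.4% of all coding genes. Immediate-early and early response genes, which are induced within minutes to hours of a stimulus, had 6 of 47 (12.8%, Wilson interval 5.98 to 25.2%). An other peak was found at 11 (23.4%). The peak was 12602 bp at Klf9, 6577 bp at Nr4a3, 5052 bp at Fosl2, 4889 bp at Dusp4, 4654 bp at Jun and 4434 bp at Nr4a2. Nr4a2 and Nr4a3 encode orphan nuclear receptors induced by antigen receptor signals, Fosl2 an AP-1 partner of Jun, and Dusp4 a phosphatase that turns off MAP kinases. The Dusp4 and Nr4a2 promoter stretches printed above lie under 2 of these peaks.

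B cell transcription factors had 3 of 49 (6.12%, 2.10 to 16.5%), and 16 (32.7%) had an other peak. Those with a broad peak were Pax5, the factor that holds B cell identity, Myb, and Hhex, a homeobox gene of memory B cells and progenitors. The Pax5 peak was 5021 bp, of which 4276 bp lay upstream of the gene's 5′ end and 745 bp downstream, and that at Myb was 4366 bp, with 1532 bp upstream and 2834 bp downstream. The Hhex peak was 4240 bp. Pax5 also belongs to the genes mutated by activation-induced deaminase outside the immunoglobulin loci. Of these, 2 of 22 (Pax5 and Birc3) had a broad peak and 6 (27.3%) had an other peak.

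Cell cycle and checkpoint genes had 3 of 47: Ccnd2 (6808 bp), which encodes the cyclin D2 that B cells need to enter the cycle, Cdk6 (4344 bp), its kinase partner, and E2f6 (4664 bp), a repressive E2F factor. Genes of replication licensing and firing had 2 of 47, Cdt1 (4388 bp), which loads the MCM helicase, and Rfc3 (4623 bp), a subunit of the clamp loader. In each of these lists 25 genes (53.2%) had an other peak, beside 33.4% of all coding genes. A single gene each was found for B cell receptor signalling (1 of 39, Pik3r1, 4265 bp), NF-kappaB and its regulators (1 of 28, Birc3), MAP kinase, RAS and GTPase signalling (1 of 48, Rhob, 4594 bp), chromatin regulators (1 of 80, Smarca2, 4901 bp), cytosolic ribosomal proteins (1 of 76, Rpl37a, 4152 bp) and antigen presentation (1 of 41, H2-M3, 4061 bp). The single genes were 2.56, 3.57, 2.08, 1.25, 1.32 and 2.44% of these lists, and each Wilson interval included the 0.994% of all coding genes. Other peaks were found at 18, 11, 22, 35, 36 and 1 genes of these lists (46.2, 39.3, 45.8, 43.8, 47.4 and 2.44%).

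A list of developmental factors was also represented, and of the lists of other lineages only that of T cells was, by Gata3 alone. Developmental transcription factors had 4 of 120 (3.33%, 1.30 to 8.26%), Pax5, Pou3f2 (4727 bp), Gata3 (4292 bp) and Neurog2 (4199 bp). An other peak was found at 45 (37.5%). Gata3, the factor that directs helper T cells and is counted again here, was the only 1 of 22 T cell genes with a broad peak. This was 4.55% (0.807 to 21.8%), an interval that included the 0.994% of all coding genes. An other peak was found at 4 T cell genes (18.2%). Zinc finger genes with the symbol Zfp had 4 of 358 (1.12%), Zfp516, Zfp280d, Zfp667 and Zfp945, close to the share of all coding genes. An other peak was found at 116 (32.4%), also close to the 33.4% of all coding genes. Of 22 long noncoding RNA genes, Tug1 (14827 bp) and Dleu2 (7830 bp) had a broad peak (9.09%, 2.53 to 27.8%). Over all autosomal noncoding genes the share was 0.461%. An other peak was found at 6 of the 22, and the share over all noncoding genes was not counted for other peaks.
The remaining lists had no broad peak at a TSS. They were DNA break repair and class switching (0 of 36, which allows up to 9.64% by the Wilson bound, with other peaks at 25 genes), RNA splicing and processing (0 of 64, 5.66%, 32), translation initiation and elongation (0 of 63, 5.75%, 34), ubiquitin genes (0 of 60, 6.02%, 32), proteasome subunits (0 of 38, 9.18%, 20) and the IL-4 and TLR4 response (0 of 34, 10.2%, 17). The same held for canonical histone genes (0 of 67, 5.42%, 2), Hox genes (0 of 39, 8.97%, 10), the BCL2 family (0 of 20, 16.1%, 6), erythroid genes (0 of 12, 24.2%, 5), myeloid genes (0 of 21, 15.5%, 2) and odorant and vomeronasal receptors (0 of 1398, 0.274%, 2). For all but the receptors, the upper bound lay above the 0.994% of all coding genes, so these counts of 0 were not below it at this size. Shares with an other peak ran from 0.143% of the receptors to 69.4% of the break repair genes, beside 33.4% of all coding genes.

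**Figure D4:**
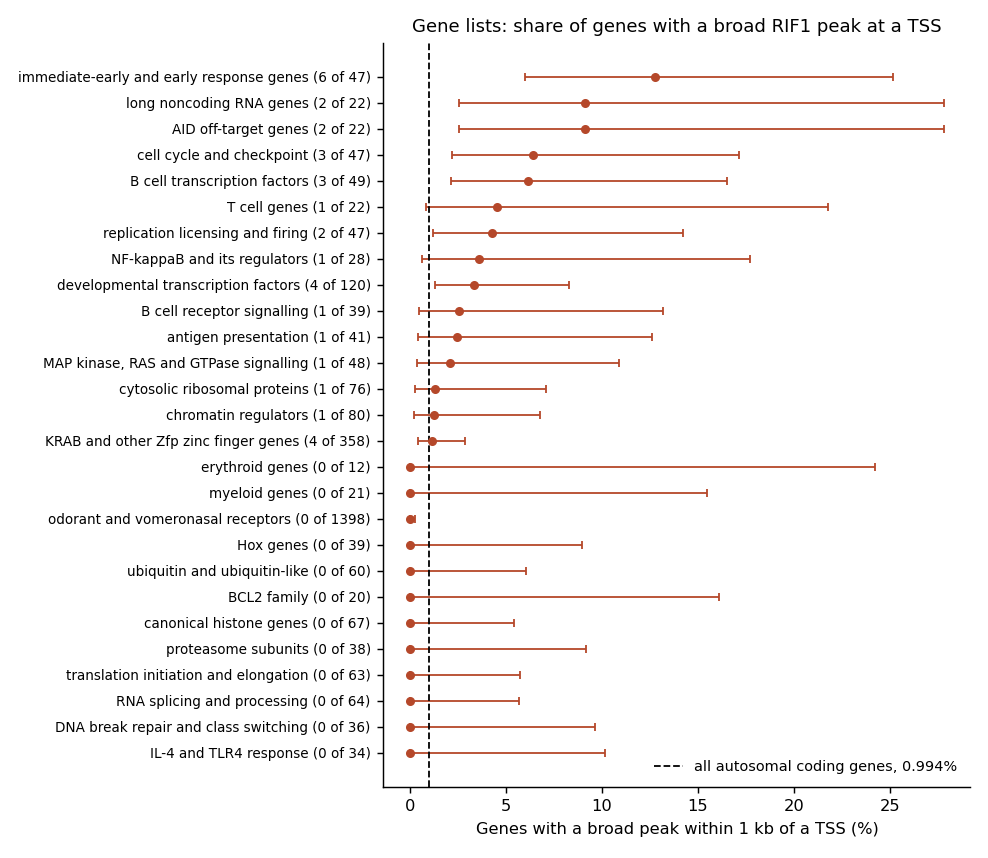
Share of the genes of each of the 27 lists with a broad peak within 1 kb of a TSS (%), with the number of genes in brackets and 95% Wilson intervals as bars. The dashed line is the 0.994% of all autosomal coding genes, and the 0.461% of noncoding genes is not drawn. Immediate-early genes stand at 12.8% and 12 lists at 0.

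Other genes of interest, chosen after their values were seen, shared pathways. In PI3K and FOXO signalling, which links growth signals to quiescence, broad peaks lay at Foxo3 (5336 bp), Irs1 (4188 bp), Pik3r1 and Pik3ip1, and at Pdcd4 (6460 bp), a translation inhibitor under that pathway's control. In Notch signalling they lay at the ligand genes Jag1 (4845 bp) and Dll1 (4187 bp) and the target gene Hey1 (5243 bp). Homeobox and zinc finger genes of embryonic patterning were also met, among them Meis1 (4139 bp), Meis2 (5283 bp), Otx1 (4504 bp), Isl2 (6764 bp), Sp9 (5107 bp), Zic5 (4003 bp) and the shared start of Zic1 and Zic4 (4134 bp). The co-repressor genes Tle1 (4279 bp) and Tle3 (5611 bp) and Bhlhe41 (5827 bp), a repressor needed by B-1a cells, were further examples. Picked in this way, they show what lay under the peaks and not that any pathway was favoured.

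Within 50 kb of a broad peak lay the TSSs of 655 coding genes (3.06% called). The lists gained genes by this measure: Rbpj, the Notch effector, and Erg joined the B cell factors (5 of 49, 10.2%), and Blk and Cd79b joined B cell receptor signalling (3 of 39, 7.69%). Rasgrp1, which activates RAS in lymphocytes, and the kinase gene Map3k8 were gained in the MAP kinase list. Bmi1, Ezh1 and Tet1 joined the chromatin regulators (4 of 80, 5.00%), whereas the immediate-early genes stayed at 6 of 47. Gains were not limited to lists of B cells and signalling. Proteasome subunits stood at 3 of 38 (7.89%), the BCL2 family at 2 of 20 (10.0%) and RNA splicing at 3 of 64 (4.69%). Odorant and vomeronasal receptors stood at 9 of 1398 (0.644%), and the break repair, canonical histone, Hox and erythroid lists had none. No interval was computed for these shares. Mir142, a microRNA gene of blood cells, lay 1.13 kb from the edge of a 7939 bp peak, and Cd180, a receptor of B cells, lay 25.3 kb from one. Neighbours share a peak in some cases, such as Cd79b and Psmc5 beside the peak at Smarcd2 and Tcam1 (6142 bp), so these counts are not independent.

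Some genes lay largely under a broad peak. Broad peaks overlapped 290 coding genes, of which 46 were covered over at least 50% of their span and 14 completely. Wholly covered were short genes such as Adm (2.16 kb), which encodes the peptide adrenomedullin, Ccr10 (2.45 kb), Tmsb10 (1.40 kb), an actin-binding thymosin, Rasl10a (2.26 kb) and Cbln1 (3.75 kb), a synaptic organiser; the file lists a second gene of that name inside it.
Among genes of 10 kb or more, the covered share was 69.3% at Scarf2 and 66.5% at Trim56, followed by Pik3ip1 (51.1%) and Birc3 (50.2%). It was 46.8% at Gm525, 43.0% at Gas2l1, 42.4% at Cntnap1, 35.0% at Rassf1, a tumour suppressor gene of the RAS pathway, and 33.3% at 1700028I16Rik. The peaks met a TSS of these genes as well as transcribed sequence, except at Scarf2 and Gas2l1, where none lay within 1 kb of a TSS of the gene.

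At the 144 broad peaks that met 1 coding gene's 5′ end, a median of 56.7% of the bases lay downstream of it (2562 bp downstream and 1952 bp upstream in the median), against 53.6% at 4534 other peaks, a difference of 3.01 points (-2.30 to 8.16) that could not be told from 0. Single genes ranged widely. The peak was almost wholly downstream at 5031414D18Rik (99.5%), 1700028I16Rik (96.6%) and Tmsb10 (95.5%). It was mostly upstream at Actb (7.45% downstream), which encodes beta-actin, Ren1 (9.86%), Snx20 (11.0%), Rps6ka5 (11.7%), Morc2a (12.9%) and Pax5 (14.8%). At Jun (65.7%), Nr4a3 (63.9%) and Foxo3 (59.1%) it extended over both sides.

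The 10 broad peaks farthest from a coding TSS were not all outside genes. The farthest was 1325 kb from the TSS of Zeb2, its nearest coding gene. It lay within the noncoding gene Gm13470, with its midpoint within 1 kb of a TSS of that gene. The others of the 10 farthest lay from 207 to 379 kb from a coding TSS. Their nearest coding genes were Fut8 (379 kb), Nuak1 (282 kb), Gm17350 (269 kb), Jun (251 kb), Rplp1 (246 kb), Ntm (236 kb), Gm9869 (218 kb), Chek2 (218 kb) and Mef2c (207 kb). The peak assigned to Chek2 lay within Ttc28 and that assigned to Mef2c, the gene of a MADS box factor of B cells, lay within the noncoding gene C130071C03Rik. Their gaps to the next peak of any width ran from 1.80 kb at the peak nearest to Rplp1 and 3.33 kb at that nearest to Mef2c to 776 kb at the peak in Ntm.

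Among noncoding genes, 61 of 13235 (0.461% called) had a broad peak within 1 kb of a TSS. They were 32 lincRNA genes, 18 processed transcripts, 4 miRNA genes, 4 snRNA genes and 3 of other kinds. Many stand beside a coding gene whose start the same peak covers, such as 2410080I02Rik at Klf9, Gm12592 at Pik3ip1 and Mir26b at Ctdsp1, and there both starts cannot be told apart. Dleu2, the host gene of a microRNA cluster that restrains B cell proliferation, had a broad peak of 7830 bp at its start that met no coding TSS. The snRNA genes belong to families of near-identical copies, so reads there are uncertain even with unique alignments.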

How the data were processed

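Anti-HA ChIP-seq was done on activated splenic B cells (Rif1FH and Rif1WT, n = 2 each). Per the study's methods and the submitters' processing notes, the authors trimmed reads with Trim Galore 0.6.4, aligned them with Bowtie 1.0.0 to mm9 keeping unique alignments, called narrow and broad peaks per replicate with MACS2 2.2.6, called wide domains with EDD, and used bedtools 2.27.1 to merge calls and keep those found in both Rif1FH replicates. The use of controls and the calling threshold are not given in the sources used here. The deposited list holds genome positions in bp and no score, so depth, height and spread between replicates are unknown here, and no test was possible.

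Broad peaks were taken by width and compared with peaks under 4 kb, using GENCODE vM1 genes and the NCBIM37 sequence, in Python 3.11.15 with numpy 2.4.6 and scipy 1.17.1 (scripts were tested on simulated data). Named genes were those at the 20 widest broad peaks, list genes with a broad peak at a TSS, the 10 genes of 10 kb or more most covered, and the 10 broad peaks each with the most coding TSSs and farthest from one. Genes outside this rule, the motif searches, the 50 kb counts, the runs and the comparisons within position classes away from TSSs were chosen after the values were seen. All members and lists were chosen with earlier results of these data known. Of the symbols in the lists, 4 had no match. Some genes that the rule names are not reported here.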

Additional observations from a re-analysis of the deposited data

How the results depend on the processing

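No paired analysis was possible because both Rif1FH replicates are pooled in the deposited positions, and for the same reason no replicate could be left out. The planned share of repeat-masked bases was not run, since the reference held 0 lower-case bases. Of 53 alternatives over 8 results, 30 stayed within the interval of the reported value or, for the gene count, within a band of 142 to 319.5. That band was a fixed range set around the count and is not a 95% interval. Of the others, 20 left the interval or band and 3 turned the direction. A turn was counted only where the reported interval excluded 0, so the sign changes of the G-quadruplex difference are among the 20. A value that stayed within the interval need not have moved little. The cause was not tested. The share of midpoints at a TSS (difference -10.3 points) was -0.755 with a least width of 3 kb, -19.9 with 5 kb, -18.2 after joining peaks under 1 kb apart and -20.7 against other peaks of 2 kb or wider, and it turned to 0.455 with a 5 kb TSS window and to 6.69 by any overlap. The GC difference (-1.30 points) was -0.2 with 3 kb, -2.70 after joining and -3.40 against peaks of 2 kb or wider, and it turned to 0.3 away from TSSs. The CpG ratio difference (-0.105) was -0.0421 with 3 kb, -0.133 with 5 kb, -0.140 after joining, -0.223 against peaks of 2 kb or wider, -0.0443 at TSSs and -0.0169 away from them. The G-quadruplex difference (-1.88 points) was 3.93 with 3 kb, -8.35 against peaks of 2 kb or wider and 4.27 at TSSs. The share with a neighbour differed by 21.9 points with 5 kb. Coding genes with a broad peak at a TSS numbered 653 with 3 kb, 68 with 5 kb and 360 after joining, against 213. The settings away from TSSs, and any overlap against peaks of 2 kb or wider, were chosen after seeing the data. Results at TSSs thus depend on the width limit, and with no score the list cannot say how strong any broad peak was.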
